A study of Mus musculus with 39 samples.

Results

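RNA of the mouse cell line GC1-SPG was compared between 3 libraries made with hairpins numbered 62 and 86 against Kdm6a and 3 libraries made with a scrambled hairpin (shScr). These 6 libraries are part of 39 samples in the series, and they were chosen by the number that the deposited quantifications carry in their names. Hairpin 62 is 1 library, which is titled shKdm6a A, replicate 3. Hairpin 86 is 2 libraries, which are titled shKdm6a B, replicates 2 and 3. A further set of 3 libraries with the number 17, titled A 1, A 2 and B 1, was used to show where hairpins 62 and 86 differed from another hairpin. The series also holds whole-testis RNA-seq of Kdm6a fl/y mice with and without Ddx4-Cre, which deletes Kdm6a in germ cells. It holds whole-testis RNA-seq of F1 and F2 descendants of the mice with Cre too, which carry no Cre. The chromatin and single-cell data of the series were not used here.

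GC1-SPG is an immortalised line that the labels describe as derived from spermatogonia, the dividing germ cells of the testis. All 9 libraries share this line, and none carries an engineered deletion of Kdm6a. The control libraries carry the genotype label shScr and received a hairpin too. The labels do not give the hairpin sequences, the vector, the time after delivery, or whether a hairpin stands for a pool of cells or 1 clone. They also do not say that replicates were separate cultures, so p-values here measure the spread between these libraries, which may be technical. Where libraries of different hairpins are joined in a set, that spread and the SEs also hold any difference between the hairpins.

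Kdm6a, also called UTX, is an X-linked enzyme that removes methyl groups from lysine 27 of histone H3, a mark of silenced genes, and it also works within complexes that methylate lysine 4 of the same histone. In the male germ line its partner on the Y chromosome is Uty, a close relative with little demethylase activity. A short hairpin RNA is processed by the cell into a small RNA that guides degradation of matching transcripts. Because that small RNA can also act on transcripts with partial matches, hairpins of different sequence against 1 target are commonly read side by side.

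The deposited values are estimated counts per Ensembl transcript. No source used here pairs these transcript IDs with genes, so transcripts are given by ID and length, the level of Kdm6a in the hairpin libraries is not given, and the line was not checked against germ cell markers. The 6 libraries held 27575500 to 30830000 estimated counts (totals to 6 digits), and 60575 to 62850 transcripts had at least 1 count. The 100 most abundant transcripts took 17.9% to 18.5% of the counts. Across the 30080 transcripts with a mean of at least 1 CPM (the usual count relative to library size, with library sizes scaled by TMM, a factor that equalises the bulk of transcripts), Pearson's r of log2 CPM had a median of 0.893 within hairpins 62 and 86 and 0.897 within shScr. Between those sets the median was 0.891, with a range of 0.883 to 0.898. Depth and the makeup of the libraries thus differed little, and the correlation between the sets was about as high as within them. These correlations are across transcripts, which are not independent replicates.

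The numbers 17, 62 and 86 and the title letters A and B disagree for A 3 (number 62) and B 1 (number 17). To show where these libraries lie, transcripts were ranked without them and then read in them. Both lists were chosen after other results of these data had been seen, each rests mostly on transcripts that did not pass the adjusted threshold (1 of 48977 did in each), and no test was made. They replaced an earlier list, of hairpin 86 against hairpin 17, on which A 3 lay where the shScr libraries lay and so could not be placed. Among the 20 transcripts of lowest p for A 1 and A 2 against shScr, B 2 and B 3, library B 1 lay nearer to A 1 and A 2 in 14, with a median position of 0.75 on a scale from 0 (mean of the other sets) to 1 (mean of A 1 and A 2). Library A 3 lay nearer to the other sets in 15, with a median of 0.17. The title letter would place A 3 with A 1 and A 2, and in these transcripts its values were mostly closer to the other sets. Among the 20 transcripts of lowest p for B 2 and B 3, library B 1 lay nearer to the other sets in 17, with a median of 0.06. Library A 3 lay nearer to B 2 and B 3 in 7 and nearer to the other sets in 13, with a median of 0.41. These lists hold few transcripts, chosen where A 1 and A 2 or B 2 and B 3 stood apart. Over the 30080 transcripts above, A 3 was as close to hairpin 17 (Pearson's r of 0.896, 0.894 and 0.894) as to hairpin 86 (0.895 and 0.893). Its r with the shScr libraries was similar (0.889, 0.898 and 0.891), so this measure did not place A 3 with any set.

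**Figure D1:**
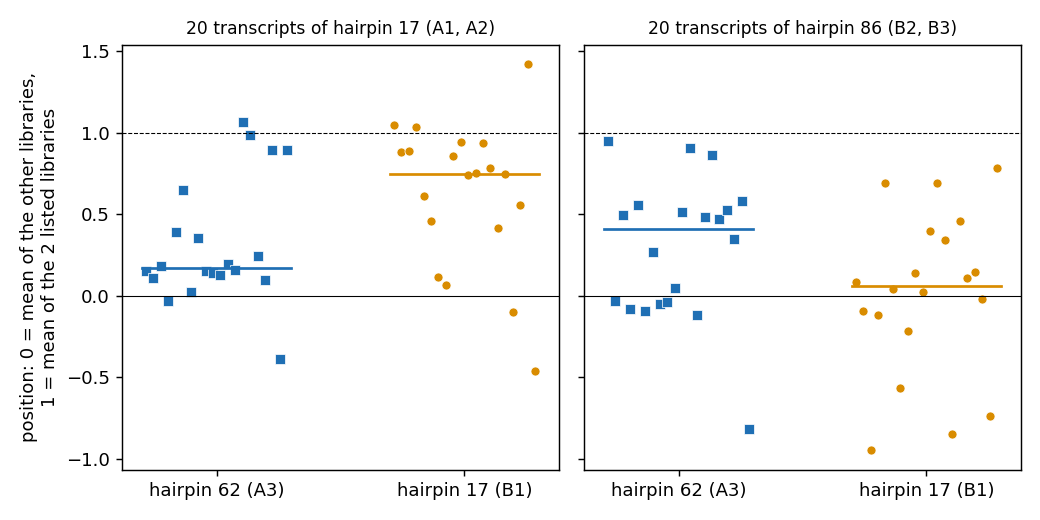
Position of the libraries hairpin 62 (A3) and hairpin 17 (B1) on 2 lists of 20 transcripts made without them, with 1 point per transcript and a line at the median. The y axis has no unit: 0 is the mean log2 CPM of the other libraries and 1 the mean of the 2 libraries that the list was made for. B1 has its median near 1 on the hairpin 17 list (0.75) and near 0 on the hairpin 86 list (0.06), and A3 has its medians at 0.17 and 0.41.

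Few transcripts passed the test between hairpins 62 and 86 and shScr. Of 46649 transcripts tested, 2 rose and 3 fell at an adjusted p under 0.05 (edgeR quasi-likelihood test, Benjamini-Hochberg over all transcripts tested), which is 0.0107% of those tested (0.00429% higher and 0.00643% lower). The count was 1 without shScr 2 or shScr 3 or with only the 6 libraries compared. It was 2 without shScr 1, A 1, A 2, B 1 or B 2, 3 without B 3 and 5 without A 3. RLE in place of TMM factors gave 7, and a mean CPM of at least 1 as the filter gave 14. With a replicate block by the number in the deposited names the count was 13. With a block by title number, which is spread unevenly over the sets, it was 0. At an unadjusted p under 0.05 there were 3631 transcripts (7.78%), 1704 higher (3.65%) and 1927 lower (4.13%). Their median absolute log2 fold change was 0.58, and the median log2 fold change of all transcripts tested was 0.00. DESeq2 on the same rounded counts called 853, or 1.95% of the 43718 to which it gave an adjusted p. Of these, 429 were higher (0.981%) and 424 lower (0.97%), so the length of the list depends strongly on the tool. The 5 transcripts called by edgeR were also called by DESeq2, from the same counts. They had 44 or more counts in every one of the 6 libraries.

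**Figure D2:**
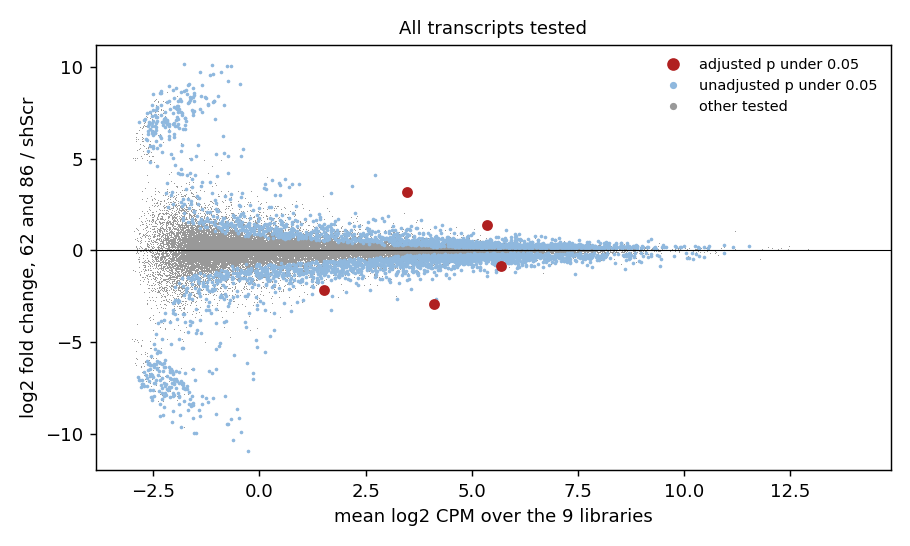
Log2 fold change of hairpins 62 and 86 against shScr (y axis) by mean log2 CPM over the 9 libraries (x axis), 1 point per transcript tested. The 5 transcripts called, 2 above and 3 below 0, lie at the edge of a cloud of 46649 transcripts centred on 0.00.

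The transcript with the lowest p was ENSMUST00000116341, 4438 bases long, which fell. Its CPM was 46.7, 40.1 and 42.9 in the shScr libraries, 5.94 in the hairpin 62 library, and 5.02 and 5.88 in the hairpin 86 libraries. The hairpin 62 and 86 libraries were close to each other and far below every shScr library. Its log2 fold change was -2.94 (SE 0.17, n = 3 and 3, adjusted p = 0.00346 by edgeR with Benjamini-Hochberg). It was called whichever 1 of the 9 libraries was left out. The hairpin 17 libraries held 18.0, 19.1 and 26.6 CPM, between the other sets without overlap, and the difference of hairpins 62 and 86 from hairpin 17 passed its own test (log2 fold change -1.92, edgeR adjusted p = 0.0189).

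ENSMUST00000107796, 4433 bases long, rose. It held 23.4, 23.7 and 25.0 CPM in shScr, 59.0 CPM with hairpin 62, and 59.5 and 71.6 CPM with hairpin 86. The sets did not overlap, and the hairpin 62 library sat at the low end of the hairpin 62 and 86 set, next to one of the hairpin 86 libraries. Its log2 fold change was 1.40 (SE 0.10, n = 3 and 3, edgeR adjusted p = 0.00847). The call was lost when any 1 of the shScr libraries was left out, with adjusted p-values of 0.0822 to 0.117. With hairpin 17 it held 42.7, 49.4 and 43.7 CPM, also between the other sets without overlap, and the difference of hairpins 62 and 86 from hairpin 17 did not pass by edgeR (adjusted p = 0.289) but did by DESeq2 (adjusted p = 0.00247).

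ENSMUST00000139685, 2051 bases long, rose most of the called transcripts on the log2 scale and was also the most variable. It held 2.16, 3.02 and 3.11 CPM in shScr, 15.1 CPM with hairpin 62, and 26.4 and 34.6 CPM with hairpin 86. Every hairpin library was above every shScr library, and the hairpin 62 library was the lowest of the 3. Its log2 fold change was 3.19 (SE 0.31, n = 3 and 3, edgeR adjusted p = 0.0425). The call was lost when any 1 library other than A 3 was left out, with adjusted p-values of 0.0871 to 0.203. The hairpin 17 libraries held 22.2, 21.5 and 18.6 CPM, within the range of hairpins 62 and 86.

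ENSMUST00000006818, 4116 bases long, fell by a smaller amount with little spread. It held 78.9, 70.4 and 72.4 CPM in shScr, 40.3 CPM with hairpin 62, and 38.2 and 43.1 CPM with hairpin 86. The hairpin 62 library lay between the hairpin 86 libraries, and the sets did not overlap. Its log2 fold change was -0.87 (SE 0.08, n = 3 and 3, edgeR adjusted p = 0.0348). The call was lost when any 1 of the 9 libraries was left out, with adjusted p-values of 0.0766 to 0.157. With hairpin 17 it held 42.1, 44.7 and 47.4 CPM.

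The third transcript that fell, 2093 bases long, held 8.23, 6.87 and 6.53 CPM in shScr, 1.59 CPM with hairpin 62, and 1.67 and 1.65 CPM with hairpin 86. It was low in all 3 libraries of hairpins 62 and 86, with 44, 52 and 46 counts. These differed less among themselves than the shScr libraries did, which at so few counts is not read as a trait of this transcript. Its log2 fold change was -2.13 (SE 0.19, n = 3 and 3, edgeR adjusted p = 0.0348). This call too was lost when any 1 of the 9 libraries was left out. With hairpin 17 it held 2.01, 1.77 and 1.80 CPM, all below the shScr libraries and above those of hairpins 62 and 86.

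**Figure D3:**
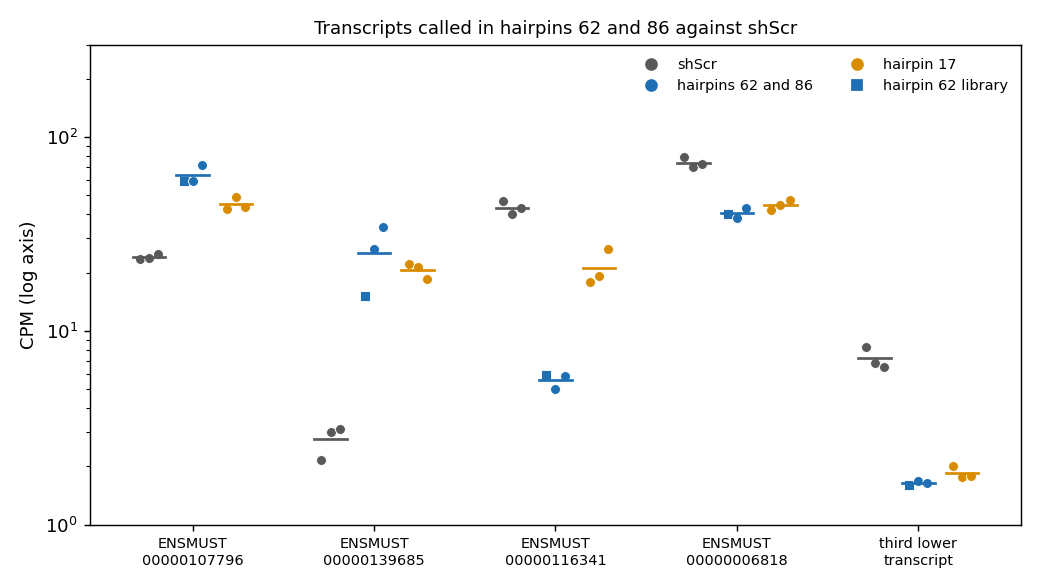
CPM (log axis) of the 5 transcripts called between hairpins 62 and 86 and shScr, 1 point per library, with the hairpin 62 library as a square and hairpin 17 for comparison. In each transcript the 3 shScr points lie apart from the 3 points of hairpins 62 and 86, and in ENSMUST00000116341, ENSMUST00000107796 and the third lower transcript the hairpin 17 points lie between them.

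The comparison of hairpin 17 with shScr uses the same 3 control libraries, so its values are set beside those above and are not a second, independent observation. That comparison had 71 calls by edgeR (0.152%), with 3776 (8.09%) at an unadjusted p under 0.05, and 1028 by DESeq2 (2.45%). The edgeR log2 fold changes of hairpin 17 against shScr were 0.91 for ENSMUST00000107796, 2.90 for ENSMUST00000139685, -1.03 for ENSMUST00000116341, -0.72 for ENSMUST00000006818 and -1.95 for the third lower transcript. The adjusted p was 0.0661 for ENSMUST00000116341 and 0.0209 for each of the others. For the called transcripts other than ENSMUST00000116341, the direct test between hairpins 62 and 86 and hairpin 17 did not pass, with edgeR adjusted p-values of 0.289 or more. This does not show that the hairpins acted alike on them.

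ENSMUST00000116341 and ENSMUST00000107796 differ in length by 5 bases and moved in opposite directions, a pattern noticed after their values had been seen. The sources used here do not say whether they belong to 1 gene, and estimated counts of transcripts with shared sequence depend on how a quantifier divides reads among them. The CPM of both together was 67.3 ± 3.20 (SD, n = 3) in shScr, 69.0 ± 7.36 (SD, n = 3) with hairpins 62 and 86, and 66.5 ± 5.11 (SD, n = 3) with hairpin 17. The mean sums differed by less than the SD within hairpins 62 and 86. The share of ENSMUST00000116341 in the sum was 64.2% ± 2.05 (SD, n = 3) in shScr, 31.8% ± 5.30 (SD, n = 3) with hairpin 17 and 8.17% ± 0.849 (SD, n = 3) with hairpins 62 and 86. Since the pair was picked from transcripts called in opposite directions in these libraries, the gap in share between shScr and hairpins 62 and 86 follows from that choice, which also favours similar sums. Both are given as a description, with no test.

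**Figure D4:**
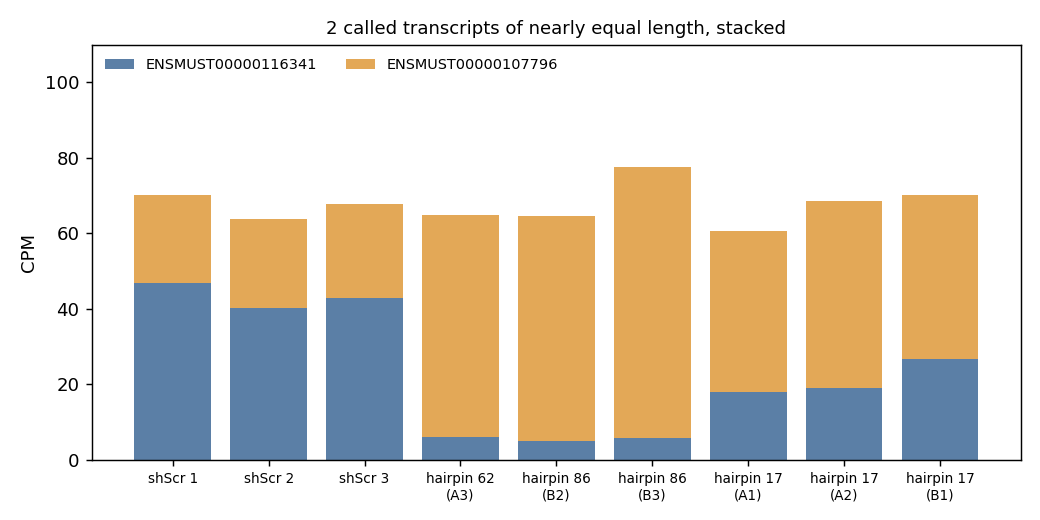
CPM of ENSMUST00000116341 and ENSMUST00000107796, stacked, in each of the 9 GC-1 libraries. The height of the bars is similar across the sets (means of 67.3, 66.5 and 69.0 CPM for shScr, hairpin 17, and hairpins 62 and 86), and the lower segment, ENSMUST00000116341, is smallest with hairpins 62 and 86.

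The division of this pair also varied among testis libraries that share no sample with the cell line. In whole testis the share of ENSMUST00000116341 ranged from 17.2% to 99.7% over 7 controls (Kdm6a fl/y, Cre-) and from 7.80% to 84.7% over 3 conditional knockouts (cKO, Kdm6a fl/y, Ddx4-Cre+). It ranged from 90.6% to 100% over 3 F1 and from 19.7% to 99.7% over 4 F2 libraries, which came from descendants of cKO mice without Cre. The summed CPM stayed between 12.3 and 16.7 over all 17. The share was either low or high, with no testis library between 20.4% and 82.7%. It was 17.2% to 20.4% in controls 1, 3 and 5, and 82.7% to 99.7% in controls 2, 4, 6 and 7. The cKO and F2 libraries also held both low and high shares, and the F1 libraries only high ones. The testis SEs of these transcripts given below take in this split.

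After the called transcripts came those that were nearest to the threshold, taken as the lowest unadjusted p with no overlap between the sets and a mean of at least 1 CPM in either. In this group 8 transcripts were higher with hairpins 62 and 86, with log2 fold changes of 0.37 to 1.21 and edgeR adjusted p-values of 0.0510 to 0.105. Another 7 were lower, with log2 fold changes of -2.13 to -0.66 and adjusted p-values of 0.0510 to 0.0925. None of these 15 passed the test, and since the rule required sets without overlap, their separation is no finding. DESeq2 gave all 15 an adjusted p under 0.05 against shScr (1.95% of the 43718 to which it gave one). Since the 15 were chosen for a low edgeR p in the same counts, this was nearly fixed in advance and adds no support. Of these 15, 1 lower transcript differed between hairpins 62 and 86 and hairpin 17 by edgeR (adjusted p = 0.0335, with 0.0322% of all transcripts called). It held 61.7 to 71.7 CPM in shScr, 39.2 to 43.9 CPM with hairpins 62 and 86, and 67.7 to 69.5 CPM with hairpin 17. DESeq2 gave 5 of the 15, 1 higher and 4 lower, an adjusted p under 0.05 against hairpin 17. The share over the 46432 to which it gave one was 1.04%.

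Hairpins 62 and 86 were then set apart, in a fit with 4 sets, a split chosen after seeing the data. The single hairpin 62 library was assumed to vary like the other sets, since it has no replicate. Against shScr, hairpin 86 alone (n = 2) gave 5 calls by edgeR among 55961 transcripts tested (0.00893%), 2 higher (0.00357%) and 3 lower (0.00536%), with 3646 (6.52%) at an unadjusted p under 0.05. Hairpin 62 alone (n = 1) gave 0 calls by edgeR, with 3199 transcripts (5.72%) at an unadjusted p under 0.05. The direct test of hairpin 62 against hairpin 86 also gave 0 calls by edgeR, with 2446 transcripts (4.37%) at an unadjusted p under 0.05. DESeq2 was not run on these splits. With 1 library, the 0 calls do not show that hairpin 62 differed from hairpin 86 or from shScr in fewer transcripts.

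For the 5 transcripts called in the joint comparison, the separate values are given as a description. These transcripts were called in the same 3 libraries without overlap with shScr, so that an equal sign with each hairpin follows from that choice. The log2 fold change of ENSMUST00000107796 was 1.30 with hairpin 62 and 1.45 with hairpin 86. It was 2.44 and 3.46 for ENSMUST00000139685, -2.86 and -2.99 for ENSMUST00000116341, and -0.87 and -0.86 for ENSMUST00000006818. The third lower transcript had -2.17 and -2.12. ENSMUST00000139685 was the one whose size differed most between the hairpins. With hairpin 86 the edgeR adjusted p was 0.0284 for ENSMUST00000107796, 0.0156 for ENSMUST00000139685 and 0.0284 for ENSMUST00000116341. It was 0.0929 and 0.11 for the other two. With hairpin 62 all 5 had adjusted p-values of 0.103 or more.

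The other two calls of hairpin 86 were transcripts whose level in the hairpin 62 library was near that of shScr. ENSMUST00000117146 held 63.6, 59.2 and 61.0 CPM in shScr, 61.1 CPM with hairpin 62, and 57.3 to 63.7 CPM with hairpin 17. In the hairpin 86 libraries it held 29.6 and 30.4 CPM, below every other library. Its log2 fold change for hairpin 86 against shScr was -1.03 (SE 0.08, n = 2 and 3, edgeR adjusted p = 0.033). The other, which held 98.3 to 108 CPM in shScr and 118 CPM with hairpin 62, had 43.7 and 49.4 CPM with hairpin 86, and 112 to 127 CPM with hairpin 17. The direct test between hairpin 62 and hairpin 86 did not pass for either (edgeR adjusted p of 0.118 and 0.0718). With 1 hairpin 62 library, a difference of this kind has no replicate on that side.

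Hairpins 62 and 86 differed from hairpin 17 in 15 of 46649 transcripts (0.0322%), 12 higher (0.0257%) and 3 lower (0.00643%) with hairpins 62 and 86, by edgeR in the fit of all 9 libraries. At an unadjusted p under 0.05 there were 2610 (5.59%), and DESeq2 called 485 (1.04%). The call count was 0 in 9 of 20 alternatives, among them the fit of only the 6 libraries compared, both replicate blocks, and leaving out shScr 2, shScr 3, A 1 or B 2. In 10 of the 15 the libraries of hairpins 62 and 86 overlapped those of shScr, as they did in 85.7% of all transcripts tested (14.3% did not overlap). In 14 of the 15 the hairpin 17 libraries did not overlap shScr, against 15% of all transcripts tested. The 15 were chosen for a difference that involves hairpin 17, so these counts describe them and are no test. Among the 12 that were higher, the hairpin 17 libraries lay below all shScr libraries in every one (7.4% of all transcripts tested), hairpins 62 and 86 overlapped shScr in 9, and 0 passed the edgeR test between hairpins 62 and 86 and shScr. DESeq2 also called 0 of these 12 between hairpins 62 and 86 and shScr. Over the transcripts with an adjusted p, that comparison had 0.0107% called by edgeR and 1.95% by DESeq2, so 0 of 12 is near these shares.

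ENSMUST00000100655 was one of these. It held 30.7, 32.5 and 31.3 CPM in shScr, 31.8, 30.3 and 30.8 CPM with hairpins 62 and 86, and 15.7, 15.1 and 15.0 CPM with hairpin 17. The libraries of shScr and of hairpins 62 and 86 overlapped, and all 3 hairpin 17 libraries lay below them. The log2 fold change of hairpins 62 and 86 against hairpin 17 was 1.02 (SE 0.07, n = 3 and 3, edgeR adjusted p = 0.0125).

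ENSMUST00000218296 held 106, 105 and 106 CPM in shScr, 102, 131 and 126 CPM with hairpins 62 and 86, and 52.7, 54.9 and 51.8 CPM with hairpin 17. The hairpin 62 library was below shScr and both hairpin 86 libraries were above it, so that the sets overlapped. The log2 fold change against hairpin 17 was 1.17 (n = 3 and 3, edgeR adjusted p = 0.0189). In 1 of the 12 higher transcripts all hairpin 17 libraries had 0 counts, against 1.96 to 4.30 CPM in shScr and 3.87 to 6.47 CPM with hairpins 62 and 86. With a floor of 3 counts per library, its mean with hairpins 62 and 86 was at least 49.7-fold higher than with hairpin 17. The remaining 11 had log2 fold changes of 0.58 to 1.17.

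Of the 3 transcripts that were lower with hairpins 62 and 86 than with hairpin 17, ENSMUST00000116341 is described above. ENSMUST00000020980 held 185, 191 and 186 CPM in shScr, 189, 172 and 168 CPM with hairpins 62 and 86, and 278, 277 and 263 CPM with hairpin 17. Hairpin 17 lay above every other library, and hairpins 62 and 86 overlapped shScr. The log2 fold change against hairpin 17 was -0.63 (n = 3 and 3, edgeR adjusted p = 0.0189). The third is the transcript already given among those that did not pass against shScr.

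**Figure D5:**
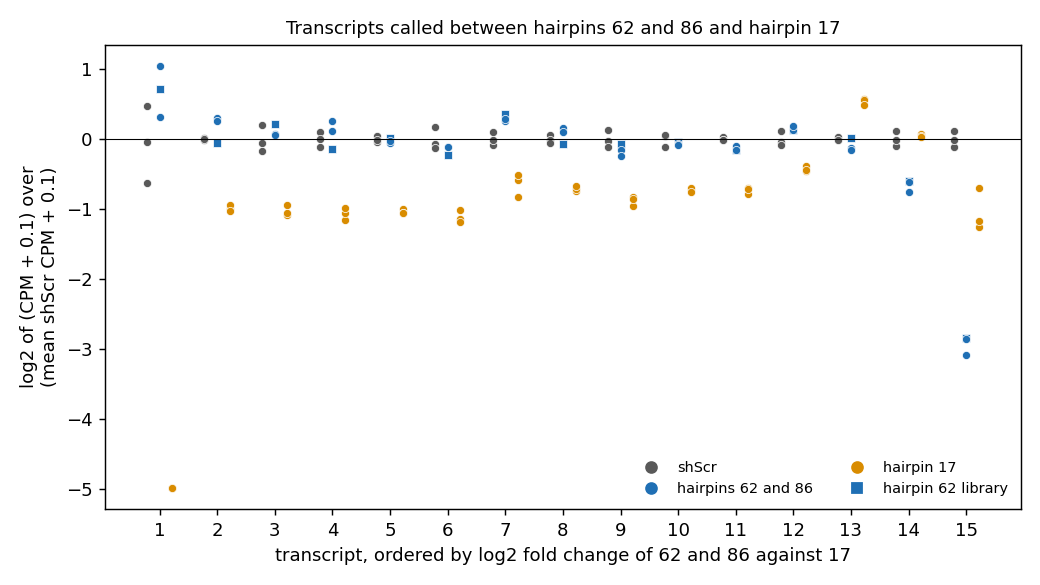
The 15 transcripts called between hairpins 62 and 86 and hairpin 17, numbered by log2 fold change, with the log2 of (CPM + 0.1) over (mean shScr CPM + 0.1) of each library on the y axis. The points of hairpins 62 and 86 overlap those of shScr in 10 of the 15 (85.7% of all transcripts tested), hairpin 17 lies apart from shScr in 14 (15% of all tested), and the transcript with 0 counts in all hairpin 17 libraries has those 3 points on top of each other near the bottom.

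The transcripts called in the cell line were then looked up in whole testis, where cKO and control libraries give a readout of Kdm6a loss that shares no library with GC-1. Whole testis holds many cell types, and a lower share of a cell type cannot be told apart from less RNA per cell. All 5 transcripts were tested there, and 0 passed between 3 cKO and 7 control libraries by edgeR, with adjusted p-values of 0.665 to 0.996. Of 61714 testis transcripts tested, 4 (0.00648%) were called and 5660 (9.17%) had an unadjusted p under 0.05. None of the 5 had an unadjusted edgeR p under 0.05. DESeq2 also called 0 of the 5, but its calls over all testis transcripts were not counted, so this adds no further result. The log2 fold changes of cKO against control were 0.96 (SE 1.42) for ENSMUST00000107796, -0.08 (SE 0.98) for ENSMUST00000139685, -0.60 (SE 0.76) for ENSMUST00000116341 and 0.19 (SE 0.24) for ENSMUST00000006818. The third lower transcript had -0.52 (SE 0.31). In a fit of only the cKO libraries and controls 5 to 7, these values were 0.79, -0.94, -0.71, -0.10 and -0.42 in the same order. The sign of ENSMUST00000006818 thus depended on the controls used. For ENSMUST00000107796 the change of 1.40 in the cell line is no larger than the standard error in testis, so a change of that size was not detectable there. For the other 4 transcripts the change in the cell line was 3.27 to 6.88 times the standard error in testis, and the testis test did not pass. Whether changes of that size would have passed after adjustment over 61714 transcripts was not tested, so their absence in testis is not shown.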

How the data were processed

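RNA was measured by paired-end polyA RNA-seq in 9 GC-1 and 17 whole-testis libraries. Each deposited file gives estimated counts, TPM and effective length per transcript, per the file headers. The authors quantified reads with kallisto 0.45.0 after FastQC, per the submitters' processing notes, which name the builds mm39 and mm10 without saying which was used for these files. No source used here gives the index. The estimated counts carry no normalization, since their totals differ between libraries. The deposited TPM values are scaled by the authors to length and to a common total, and were used only in 1 alternative. How reads are divided among transcripts with shared sequence affects estimated counts per transcript, and that error is not in the tests.

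Estimated counts were rounded to whole numbers. GC-1 libraries were grouped by the number in the deposited names (17, 62 with 86, or none for shScr). The sets held 3 libraries each and were fitted together. Libraries of hairpins 62 and 86 were thus treated as replicates, and the spread within their set includes any difference between these hairpins. Of 117497 transcripts, 46649 passed filterByExpr and were tested with edgeR 4.0.16 in R 4.3.3 (TMM, quasi-likelihood, Benjamini-Hochberg, adjusted p under 0.05). Each SE given, in GC-1 and in testis, was derived from this test as the absolute log2 fold change over the square root of the F statistic. DESeq2 1.42.0 and limma 3.58.1 (on log2(TPM + 0.5)) were alternatives, with RLE factors, other filters, replicate blocks, grouping by title letters and leaving out each library. Testis transcripts were matched by ID without version and by equal length (115771, of which 61714 were tested). The code was checked on simulated data.

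The libraries, lists and tests were chosen with earlier results of these data known. Transcripts were named if called and, where fewer than 10 were called in a direction, the list was filled to 10 with those of lowest p that did not overlap and had a mean of at least 1 CPM. Since no source used here pairs IDs with genes, at most 2 higher and 2 lower IDs are printed per comparison. The planned sums per gene, the level of Kdm6a, the gene lists and the cell type markers were left out for the same reason. Replicate numbers were not used as a block in the main test, and fits with a block were alternatives. The labels give no batch or date.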

Additional observations from a re-analysis of the deposited data

Results flagged for a closer look

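A result is given here where the effect of hairpins 62 and 86 against shScr differed from that of hairpin 17 by a direct test, which was the edgeR quasi-likelihood comparison of hairpins 62 and 86 with hairpin 17. This held for ENSMUST00000116341 (log2 fold change -1.92), where hairpin 17 lay between shScr and hairpins 62 and 86. It also held for ENSMUST00000100655 (1.02) and ENSMUST00000218296 (1.17), where hairpin 17 was below both other sets, and for ENSMUST00000020980 (-0.63), where hairpin 17 was above them. Most alternatives ended these calls: of 20, the call was kept in 6 for ENSMUST00000116341, 9 for ENSMUST00000100655, 7 for ENSMUST00000218296 and 7 for ENSMUST00000020980, and in none with either replicate block or with only the 6 libraries compared. The part that library depth or the makeup of each hairpin's cells had in these differences was not tested.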

How the results depend on the processing

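The main counts were 5 transcripts called between hairpins 62 and 86 and shScr and 15 called against hairpin 17. DESeq2 called 853 and 485, a mean CPM of at least 1 as the filter gave 14 and 29, and a fit of only the 6 libraries compared gave 1 and 0. With a replicate block the counts were 0 and 0 by title number and 13 and 0 by the number in the deposited names. Neither number was used as a block in the main test, under a limit set by choice. Pearson's r of deviations from set means had to pass 0.1 in every pair and did not. For equal numbers in the deposited names it was 0.02 to 0.05 between shScr and hairpins 62 and 86, 0.02 to 0.06 between hairpin 17 and hairpins 62 and 86, and 0.06 to 0.10 between hairpin 17 and shScr. By that number, libraries had their highest r with their own number in 6 of 6, 5 of 6 and 6 of 6. This is a hint of pairing from the data, which the main p-values do not take into account. The number in the deposited names also runs from 1 to 3 once in each set, but the labels do not say what it stands for. Grouping by title letters gave 0 and 0. limma on log2(TPM + 0.5) called 20 against shScr. RLE factors gave 7 and 13, and no filter on low counts gave 5 and 18. Of 20 alternatives, 4 against shScr and 3 against hairpin 17 gave a count within 1.5 times the main one. Hairpin 62 alone gave 0 and 0, and hairpin 86 alone gave 7 against hairpin 17 (both chosen after seeing the data). These counts of 0 are by edgeR, and 1837 to 3212 transcripts had an unadjusted p under 0.05 in them. Leaving out 1 library gave 1 to 5 calls against shScr and 0 to 6 against hairpin 17. Against shScr, 1 was called without shScr 2 or shScr 3, 2 without shScr 1, A 1, A 2, B 1 or B 2, 3 without B 3 and 5 without A 3. Of the 5 main calls, 1 was among these without any 1 of the shScr libraries, 3 without A 3, and 2 without any other. Against hairpin 17, 0 were called without shScr 2, shScr 3, A 1 or B 2, 1 without A 2 or B 3, 3 without shScr 1 or B 1 and 6 without A 3. The cause of these shifts was not tested, except that leaving out libraries or fitting fewer leaves fewer samples. For the named GC-1 transcripts that follow, no log2 fold change changed sign. ENSMUST00000116341 was called against shScr in 17 of 20 alternatives, with log2 fold changes of -3.00 to -1.79, ENSMUST00000107796 in 13, ENSMUST00000139685 in 8 and ENSMUST00000006818 in 6. Against hairpin 17, ENSMUST00000100655 was called in 9 of 20 (log2 fold changes of 0.28 to 1.06), ENSMUST00000218296 in 7 (0.56 to 1.28), ENSMUST00000020980 in 7 (-0.68 to -0.30) and ENSMUST00000116341 in 6 (-2.02 to -0.20). The values nearest 0 came from grouping by title letters. The count of called transcripts that passed in testis was 0 also with only controls 5 to 7 and with DESeq2. With only controls 5 to 7 the testis log2 fold change of ENSMUST00000006818 changed sign, from 0.19 to -0.10. Alternatives for sums per gene were not run, since IDs were not paired with genes.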
